A study of Mus musculus with 6 samples.

Results

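Open chromatin was profiled by ATAC-seq, an assay that tags accessible DNA with a transposase loaded with sequencing adapters. The peaks described here were weaker in the MS-275 group than in vehicle, with no counterpart among the peaks weaker in the CXD101 group. They were selected on measured values: each was called as higher in vehicle than in MS-275, and shared no base with any peak called as higher in vehicle than in CXD101. By this rule 340 of the 691 MS-275 lost peaks were MS-275-only lost peaks. The 6 deposited lists held 11800 peaks in all. The other 351 MS-275 lost peaks overlapped a CXD101 lost peak, and 353 CXD101 lost peaks overlapped no MS-275 lost peak.

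M-MDSCs, the monocytic subset of myeloid-derived suppressor cells, had been sorted as CD11b+Ly-6ChiLy-6G- from tumors. The wild-type C57BL/6J mice, young adult females, carried Hepa 1-6 hepatoma cells grafted into the liver, and received vehicle, MS-275 or CXD101 into the peritoneum every day, with both inhibitors at the same dose. There were 2 libraries per group, and the authors pooled them before calling peaks. Each value below is therefore 1 value per pooled group. No replicate check was possible, and the number of reads per library was not analysed here. The lists hold sites that differed between groups, so they could not show whether the cells carried the open sites of M-MDSCs.

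Histone acetylation loosens the contact between DNA and nucleosomes, and class I histone deacetylases remove it. MS-275 (entinostat) and CXD101 both inhibit class I histone deacetylases. Much of the open chromatin away from promoters belongs to enhancers, short elements that bind transcription factors and control genes at a distance. In myeloid cells many enhancers carry sites for AP-1, a dimer of Jun and Fos proteins that is induced by growth factors and inflammatory signals, beside sites for PU.1, the ETS factor that sets the myeloid lineage. The question here was which features the MS-275-only lost peaks had in common and how far the missing CXD101 call separated them from the peaks lost with both inhibitors.

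AP-1 was the motif most often found at these peaks, and the matches lay beside the summits. The AP-1 motif searched was TGACTCA or its reverse complement TGAGTCA. In some places neighbouring MS-275-only lost summits stood on either side of such a match. The 3 strongest pairs of this kind, among those that fit in 300 bases, are shown from the first summit base to the second, on the plus strand of mm10, with the AP-1 matches in capitals. They were chosen after the position of the matches had been seen. The pair in an intron of Ankib1, an E3 ubiquitin ligase, spanned chr5:3787556-3787848. The pair in an intron of Ttc7b, a part of the complex that carries phosphatidylinositol 4-kinase to the plasma membrane, spanned chr12:100326846-100327102 and held 2 matches. The pair in an intron of Rptor, the scaffold subunit of the growth-regulating kinase complex mTORC1, spanned chr11:119824937-119825223.
Ankib1: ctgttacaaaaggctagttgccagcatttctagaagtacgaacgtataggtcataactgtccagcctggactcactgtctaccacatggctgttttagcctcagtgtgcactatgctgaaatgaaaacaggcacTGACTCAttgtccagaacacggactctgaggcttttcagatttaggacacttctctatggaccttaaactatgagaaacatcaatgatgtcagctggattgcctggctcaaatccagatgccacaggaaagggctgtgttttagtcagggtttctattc
Ttc7b: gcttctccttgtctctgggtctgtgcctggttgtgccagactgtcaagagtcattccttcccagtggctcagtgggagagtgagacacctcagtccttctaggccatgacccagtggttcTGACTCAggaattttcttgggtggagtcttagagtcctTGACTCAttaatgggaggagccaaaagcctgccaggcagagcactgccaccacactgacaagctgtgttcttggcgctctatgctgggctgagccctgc
Rptor: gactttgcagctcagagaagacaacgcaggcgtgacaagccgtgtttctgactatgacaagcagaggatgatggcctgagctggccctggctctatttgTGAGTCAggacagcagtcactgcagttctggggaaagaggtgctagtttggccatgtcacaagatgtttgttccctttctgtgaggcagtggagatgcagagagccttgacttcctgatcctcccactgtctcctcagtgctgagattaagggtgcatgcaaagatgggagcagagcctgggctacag

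In vehicle the Ankib1 summits had 24 and 30 tags, and in MS-275 a level of 5.84 each, the background level of the list. A tag is a sequenced fragment end extended over the position, and the vehicle tags are whole counts recovered from the deposited values. The MS-275 level is the local control level scaled to vehicle depth, and is an upper estimate. The Ttc7b summits had 26 and 29 vehicle tags over MS-275 levels of 9.62 and 6.30. At Rptor they had 38 and 39 vehicle tags over levels of 10.5 and 13.1. The middle of the nearest match lay 9 bp from the midpoint of the Ankib1 summits, 5 bp from that of the Ttc7b summits and 41 bp from that of the Rptor summits. At each of these introns both summits belonged to the same called peak stretch, so the match lay inside the DNA called as higher in vehicle.

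The 3 strongest MS-275-only lost peaks that had a match within 250 bp and no such neighbour are shown next, from 20 bases beyond the summit to 20 bases beyond the middle of the match, on the plus strand of mm10. The Taar8b peak was intergenic, 5.03 kb from the start of Taar8b, a trace amine receptor of olfactory neurons, and the stretch was chr10:24087109-24087280. The Pxk peak lay in an intron of Pxk, which encodes an endosomal protein, and the stretch was chr14:8154124-8154300. The Clec4a2 peak lay in an intron of Clec4a2, an inhibitory C-type lectin receptor of myeloid cells, and the stretch was chr6:123116479-123116666.
Taar8b: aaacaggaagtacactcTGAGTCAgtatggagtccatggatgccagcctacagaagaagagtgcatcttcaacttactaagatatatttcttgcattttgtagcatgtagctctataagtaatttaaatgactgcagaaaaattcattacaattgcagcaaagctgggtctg
Pxk: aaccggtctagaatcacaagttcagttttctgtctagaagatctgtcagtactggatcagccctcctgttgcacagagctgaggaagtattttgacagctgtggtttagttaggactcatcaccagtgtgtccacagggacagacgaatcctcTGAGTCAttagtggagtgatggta
Clec4a2: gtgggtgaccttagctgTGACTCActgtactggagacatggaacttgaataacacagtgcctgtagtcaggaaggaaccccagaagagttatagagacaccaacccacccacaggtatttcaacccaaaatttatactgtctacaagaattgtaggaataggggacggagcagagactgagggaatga

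The match was 131 bp from the summit at Taar8b, 136 bp at Pxk and 147 bp at Clec4a2. A match closer to the summit was the less common arrangement. The 2 strongest peaks with a match within 100 bp are given with 100 bp on either side of the summit. The first window was chr19:56756669-56756869, 32.9 kb from the start of Adrb1, the beta-1 adrenergic receptor, with its match 89 bp from the summit. The second was chr4:138213860-138214060, 2.34 kb from the start of Hp1bp3, a heterochromatin protein, with its match 65 bp away.
Adrb1: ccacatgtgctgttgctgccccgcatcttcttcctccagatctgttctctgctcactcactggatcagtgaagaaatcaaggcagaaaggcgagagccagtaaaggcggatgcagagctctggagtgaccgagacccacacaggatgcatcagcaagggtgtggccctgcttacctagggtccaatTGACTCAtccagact
Hp1bp3: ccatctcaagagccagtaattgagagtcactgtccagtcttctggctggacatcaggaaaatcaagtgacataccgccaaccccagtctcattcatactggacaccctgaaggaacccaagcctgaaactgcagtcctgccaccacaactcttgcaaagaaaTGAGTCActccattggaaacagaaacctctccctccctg

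Within 100 bp of the summit, 56 of the 340 MS-275-only lost peaks (16.5%, 95% Wilson interval 12.9 to 20.8) held an AP-1 match. At the same positions moved by 10 kb, 10 of 340 (2.94%) did. Of windows of the same length spaced every 20 kb over the genome, 3.13% held a match, and of RefSeq promoters of 300 bp, 5.20%. The share was 13.7 percentage points above the 2.79% of MS-275 gained peaks (95% Newcombe interval of the difference 10.1 to 18). Against the 19.7% of peaks lost with both inhibitors the difference was -3.19 points, with an interval of -8.91 to 2.57. It was 5.42 points above the 11.0% of CXD101-only lost peaks, with an interval of 0.286 to 10.6. All intervals cover counting error only and are not adjusted for the 156 differences computed, and peaks that share an interval are not independent.

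The 100-bp window missed most of the matches. In 50-bp zones on either side, MS-275-only lost peaks had 7.94 matches per 100 peaks at under 50 bp from the summit, 9.71 at 50 to 100 bp, 17.6 at 100 to 150 bp and 15.6 at 150 to 200 bp. The density fell to 2.21 per 100 peaks and 50 bp at 300 to 400 bp and 1.76 at 400 to 550 bp. At MS-275 gained peaks it stayed between 1.38 and 2.39 in every zone. The peaks lost with both inhibitors had their highest density, 21.1, in the zone of 100 to 150 bp as well, and so did the CXD101-only lost peaks, with 16.4. The placement beside the summit was therefore shared by all 3 sets of lost peaks. The calls did not move summits to the transposase cut, so the distance from a match to the cut sites was not measured.

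**Figure D1:**
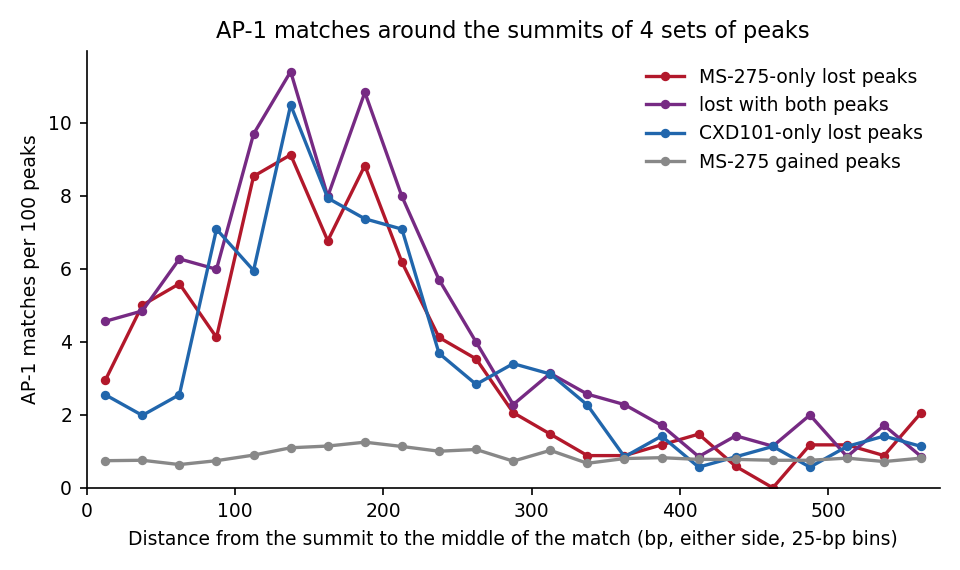
AP-1 matches per 100 peaks (y axis) by the distance of the middle of the match from the summit in 25-bp bins (x axis, bp, both sides together), for the 340 MS-275-only lost peaks, the 351 lost with both, the 353 CXD101-only lost and the 8480 MS-275 gained peaks. The lost peaks have most matches at 100 to 200 bp and the gained peaks are near 1 per bin throughout.

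With a window of 250 bp, chosen after this profile had been seen, 158 of the 340 peaks (46.5%, interval 41.2 to 51.8) held a match, against 25 of 340 (7.35%) at the moved positions and 7.67% of genome windows of that length. The MS-275-only lost peaks then stood 37.8 points above the gained peaks (8.70%, interval of the difference 32.5 to 43.1). The difference to the peaks lost with both inhibitors (55.0%) was -8.52 points (interval -15.8 to -1.06), and the difference to CXD101-only lost peaks (42.5%) was 3.98 points (interval -3.41 to 11.3). An AP-1 match near the summit was thus no feature of the MS-275-only lost peaks alone. Counted once per interval, 124 of the 280 intervals (44.3%) held a match within 250 bp of their strongest summit.

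The share was also taken by position and length, with no test of the differences. Of the MS-275-only lost peaks in introns, 91 of 177 (51.4%, interval 44.1 to 58.7) had a match within 250 bp, of those in exons 10 of 15 (66.7%, 41.7 to 84.8), of those at promoters 29 of 67 (43.3%, 32.1 to 55.2), and of the intergenic ones 28 of 81 (34.6%, 25.1 to 45.4). Within 100 bp the order was another one, with 22.4% at promoters, 15.8% in introns, 13.6% in intergenic DNA and 13.3% in exons. Among peaks of 400 bp or more it was 70 of 121 (57.9%), among those under 250 bp 64 of 160 (40%). The 12 peaks with the highest −log10 p included 5 with a match.

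Many of the summits stood in pairs, and matches were found between them. Of the 340 peaks, 121 (35.6%) stood in 61 pairs of neighbouring summits 200 to 400 bp apart, at a median distance of 292 bp. The share in such pairs was 38.5% for peaks lost with both inhibitors, 15.3% for CXD101-only lost peaks and 40.1% for MS-275 gained peaks. Pairing was thus no feature of the MS-275-only lost peaks alone. An AP-1 match lay within 50 bp of the midpoint in 19 of the 61 pairs (31.1%, interval 20.9 to 43.6). It lay within 50 bp of either summit in 5 pairs (8.20%), and within 50 bp of the points 1 pair distance to either side of the midpoint in 3 (4.92%). Pairs of MS-275 gained summits had a match at the midpoint in 39 of 1820 cases (2.14%), 29.0 points fewer (interval 18.8 to 41.5). Midpoint matches were more common still in pairs lost with both inhibitors (33 of 68, 48.5%, difference -17.4 points, interval -32.9 to -0.452) and in CXD101-only pairs (18 of 27, 66.7%, difference -35.5 points, interval -53.4 to -12.9). The pair distance and the windows were chosen after the summits had been seen.

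Of the 14 other motif families searched, PU.1 was above the moved positions in both windows, and NF-kB in the wider one. The PU.1 motif GAGGAAGT, on either strand, was found within 100 bp in 14 of the 340 peaks (4.12%, interval 2.47 to 6.79), 2.94 points above the moved positions (interval 0.493 to 5.71), and in 1.21% of genome windows and 3.20% of RefSeq promoters. Within 250 bp it was found in 41 peaks (12.1%), 9.71 points above the moved positions (interval 5.94 to 13.8) and 4.94 points above the peaks lost with both inhibitors (7.12%, interval 0.534 to 9.43). The difference to the gained peaks (9.66%) was 2.40 points, with an interval of -0.711 to 6.34. The difference to the CXD101-only lost peaks (11.6%) was 0.444 points, with an interval of -4.40 to 5.32. Within 100 bp PU.1 was 2.29 points above the gained peaks (interval 0.612 to 4.98). There it was 2.12 points above the peaks lost with both inhibitors (interval -0.519 to 4.99) and 0.435 above the CXD101-only lost peaks (-2.57 to 3.51). Against gained peaks and peaks lost with both, whether the interval included 0 thus depended on the window. NF-kB was found within 250 bp in 7.94% of the peaks, 4.41 points above the 3.53% of moved positions (interval 0.901 to 8.10). Its share was 10.8% for peaks lost with both inhibitors, 8.78% for CXD101-only lost peaks and 6.03% for gained peaks. RUNX (TGTGGTT), the most common of these families within 100 bp, was found in 5.88% of the peaks and in 5.59% of the moved positions. C/EBP (TTGCGCAA, TTGCACAA or TTGCATCA) was found in 1.76% and 1.47%. The cyclic AMP response element (TGACGTCA), which bZIP dimers related to AP-1 bind, was in 0 of 340 peaks within 100 bp, and in 0.0977% of genome windows. Within 250 bp it was in 3 of 340 peaks (0.882%) and at 1 moved position (0.294%). The hepatocyte motif HNF4 (CAAAGTCCA) was in 0 of 340 peaks within 100 bp as well, and in 0.255% of genome windows. For 0 of 340 the upper limit of the Wilson interval is 1.12%, and 3 counts of 340 would be 0.882%. This limit is above both genome shares, so neither 0 shows a depletion.

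The position of the peaks in the genome was compared next. Promoter peaks, with at least 1 base in the 5 kb before a transcription start site (TSS) of the annotation, made up 67 of the 340 MS-275-only lost peaks (19.7%, interval 15.8 to 24.3). The difference was -17.7 points to the CXD101-only lost peaks (37.4%, interval -24.1 to -11.0) and -12.2 points to the gained peaks (31.9%, interval -16.2 to -7.57). The difference to the peaks lost with both inhibitors (24.5%) was -4.80 points, and its interval of -10.9 to 1.41 included 0. With the summit within 1 kb of a TSS the shares were 11.2% and 16.8%. That difference was -5.63 points, with an interval of -10.8 to -0.439. Introns held 177 peaks (52.1%), 9.61 points more than for the peaks lost with both (42.5%, interval 2.16 to 16.9) and 16.4 points more than for the CXD101-only lost peaks (35.7%, interval 8.99 to 23.5). Exons held 15 peaks and intergenic DNA 81. The summit was on a repeat in 51 peaks (15%), against 14.8% of those lost with both and 17.0% of the gained peaks.

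**Figure D2:**
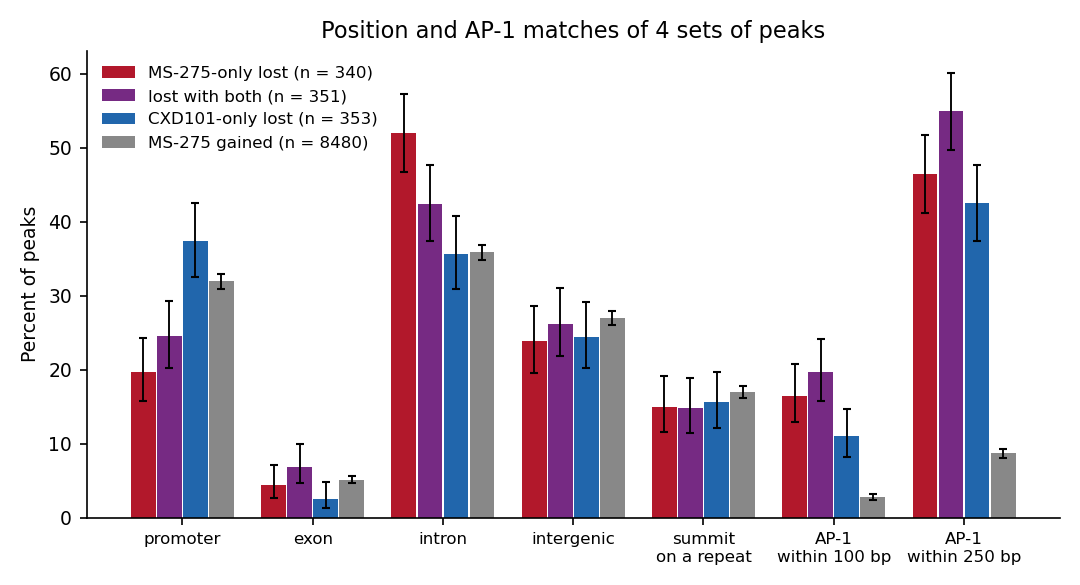
Percent of peaks (y axis) at promoters, in exons, introns and intergenic DNA, with the summit on a repeat, and with an AP-1 match within 100 or 250 bp (x axis), for 4 sets of peaks. Bars are percentages and error bars 95% Wilson intervals; the MS-275-only lost peaks were in introns in 52.1% and at promoters in 19.7%.

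The median distance from a summit to the nearest protein-coding TSS was 10.2 kb, and 10.4 kb for the peaks lost with both inhibitors. Only 29 of the 340 summits were within 1 kb of such a start, and 46 were more than 50 kb away. All 19 autosomes and the X chromosome held at least 1 MS-275-only lost peak, from 5 on the X chromosome to 36 on chromosome 11.

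The signal behind the calls was modest. These values chose the peaks and are given as a description. In pooled cells, fewer cells with an open site and less opening per cell cannot be told apart. The 340 peaks had 37 vehicle tags in the median (range 18 to 177), and a median MS-275 level of 9.79 (5.84 to 97.1). Their median fold enrichment, the deposited ratio of the vehicle pileup to the MS-275 level after a pseudocount of 1, was 3.24 (1.49 to 6.58). For the peaks lost with both inhibitors the medians were 49 vehicle tags, an MS-275 level of 13.1 and a fold enrichment of 3.18. Summits with 100 or more vehicle tags numbered 14 among the MS-275-only lost peaks and 46 among those lost with both. The MS-275 level was at the background of the list in 38 peaks. The MS-275-only lost peaks were also shorter, with a median of 266 bp against 422 bp, and 160 of them (47.1%) were under 250 bp, where the shortest length was 200 bp, against 109 (31.1%) of those lost with both.

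At the weak edge of the list the 3 lowest −log10 q were 1.33, 1.34 and 1.36. The first lay in an exon of Hectd4, 22.6 kb from the start of Trafd1, with 20 tags in vehicle over 7.34 in MS-275. The second lay in an intron of Havcr2, which encodes the immune checkpoint receptor TIM-3, with 55 tags over 30.8. The third lay 121.2 kb from the start of Eci2, an enzyme of fatty acid oxidation, with 21 tags over 7.87. At the edge of the overlap rule, 3 MS-275-only lost peaks were nearest to a CXD101 lost peak. They were 110 bp (14.9 kb from Fam19a3), 119 bp (3.71 kb from Eif3k) and 133 bp (in an intron of Ap2a1) from one. The Ap2a1 summit was 0.826 kb from the nearest transcript start. Just outside the rule, the shortest overlaps were 134 bp near Slc37a3, 178 bp near Emc7 and 181 bp near Vil1. Most peaks were far from this edge: 327 of the 340 had no CXD101 lost peak within 1 kb, and the median distance to one was 640.7 kb.

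The missing CXD101 call bounded the CXD101 level at each summit. The weakest CXD101 lost peak had a −log10 p of 4.26. The vehicle tags of each MS-275-only lost peak would have reached this value at some CXD101 level, so a level below it should have been called, apart from sites where too few bases passed for the minimum length. This lowest uncalled CXD101 level had a median of 18.6 tags. It had to lie above the MS-275 level at every peak, since all the peaks were selected at a higher −log10 p, of 4.54 or more, and it is no separation of the inhibitors. The ratio of the lowest uncalled CXD101 level to the MS-275 level, above 1 for the same reason, had a median of 1.66. The bound was loose on the other side. A peak could have lost up to 1.94-fold with CXD101 (median, range 1.35 to 2.52) and not have been called. The MS-275 fold enrichment was at least 2 times that allowed loss in 89 peaks (26.2%), and under 1.5 times it in 144 (42.4%).

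**Figure D3:**
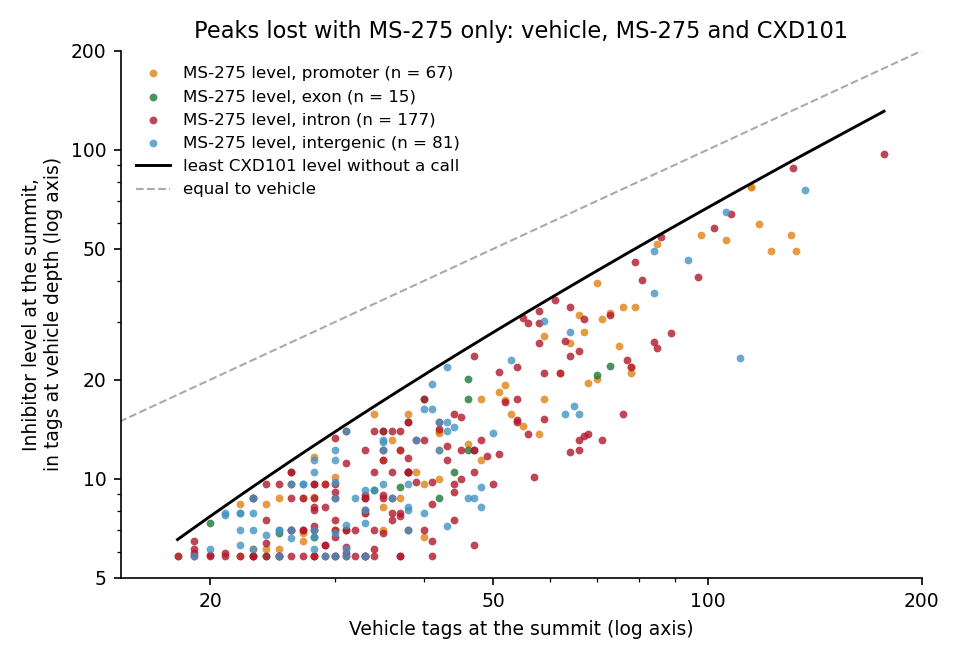
Inhibitor level (y axis, tags at vehicle depth, log axis) against vehicle tags (x axis, log axis) at the summits of the 340 MS-275-only lost peaks. Points are MS-275 levels, coloured by position; the black line is the lowest CXD101 level that gives no call. The points lie below the black line by the selection of the peaks, and many of them are close to it.

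The inhibitors were also compared directly by the authors. None of the 340 MS-275-only lost peaks overlapped a peak of the list of sites higher in CXD101 than in MS-275, which held 2 peaks in all, or a peak of the opposite list. None overlapped a peak gained with MS-275 or with CXD101. The selection of the peaks left little room for an overlap with the opposite list or with the MS-275 gained peaks. The absence of such overlaps is therefore no result about the peaks. For the CXD101 gained peaks no share over other peaks is given, so that absence is not read as a result either. The direct list of 2 peaks ended at a high significance. With the gap between its p- and q-values, a CXD101 signal of up to a median of 28.1 tags at vehicle depth would have gone without a direct call, and in 72 peaks this limit was at or above the vehicle tags. In 321 of the 340 peaks this limit was above the lowest uncalled level, so that there was a range of CXD101 levels at which neither test would have made a call. Whether accessibility at these sites differed between MS-275 and CXD101 was not shown by the lists.

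The 12 peaks with the highest −log10 p were led by the intergenic peak near Taar8b (chr10:24087140-24087344), with 111 tags in vehicle over 23.3 in MS-275 and a lowest uncalled CXD101 level of 75.6. The peak at chr3:131868496-131868705, in an intron of the noncoding gene Gm29865 and 216.7 kb from Dkk2, a secreted regulator of Wnt signalling, had 71 tags over 13.1. The Pxk peak (chr14:8154000-8154211) had 76 tags over 15.7, and a CXD101 lost peak stood 172 bp away. These 3 peaks were 205, 210 and 212 bp long. The peak in an intron of Rere (chr4:150508921-150509508), a nuclear receptor corepressor that recruits histone deacetylases, was longer, with 588 bp, and had 66 tags over 12.2. The Muc20 peak (chr16:32795443-32795670), in an intron of a mucin gene, had 64 tags over 12.1.

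A pair of these strongest peaks lay in 1 intron of Commd1, a regulator of copper transport and of NF-kB turnover, 333 bp apart. The first (chr11:22949026-22949247) had 68 tags over 13.6 and the second (chr11:22949418-22949620) 66 over 13.1, and neither had an AP-1 match within 600 bp. The Clec4a2 peak (chr6:123116531-123116741) had 57 tags over 10.1. The Ppp2r2b peak, in an intron of a regulatory subunit of protein phosphatase 2A, had the highest fold enrichment of all 340 peaks, 6.58, with 47 tags over 6.30. The peak at chr9:65525725-65525924, 5.63 kb from Ankdd1a in an intron of the noncoding gene Gm17749, had 67 tags over 13.5. The Mllt6 peak (chr11:97659327-97659541), 3.98 kb upstream of this chromatin reader gene, had the most tags of the 12, 133 over 49.3. The Adrb1 peak (chr19:56756675-56756883) had 78 tags over 21. Of the 12 peaks, 10 were under 250 bp long.

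**Figure D4:**
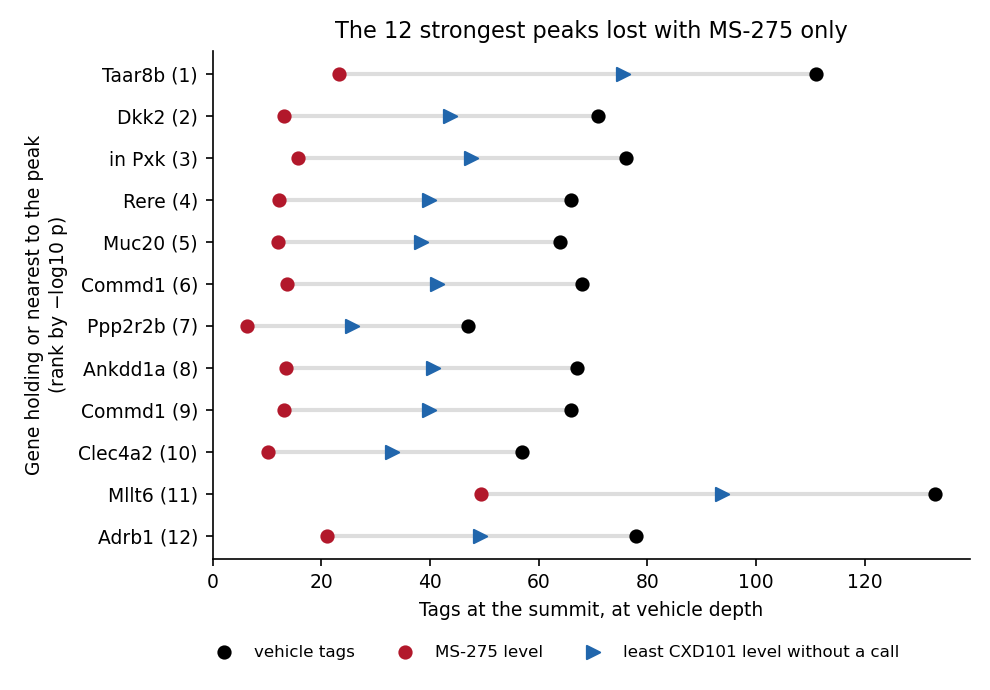
Vehicle tags (black), MS-275 level (red) and lowest CXD101 level without a call (blue) on the x axis, in tags at vehicle depth, for the 12 strongest MS-275-only lost peaks, in order of −log10 p on the y axis. MS-275 levels run from 6.30 at Ppp2r2b to 49.3 at Mllt6, and vehicle tags from 47 at Ppp2r2b to 133 at Mllt6; the selection of the peaks places each MS-275 level below the blue mark.

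Of the 29 peaks within 1 kb of a transcript start of a protein-coding gene, the 8 strongest are described. Any annotated transcript counted, so this start can lie far inside the gene. The first was in an intron of Armc9, a gene of the ciliary base, with 44 tags in vehicle over 7.52 in MS-275. It lay 489 bp downstream of a transcript start and 48205 bp from the start of the gene. Rpain, which carries replication protein A into the nucleus, had a peak 61 bp downstream of a transcript start with 123 tags over 49.3. Rdm1, a DNA repair gene, had one with 131 tags over 55.1. It lay 68 bp upstream of a transcript start but 1126 bp inside the gene. Gas8, a gene of the dynein regulatory complex, had 68 tags over 19.6, and Rrp12, a gene of ribosome assembly, 70 tags over 20.6. Ap2a1, a subunit of the clathrin adaptor, had 47 tags over 10.5 in an intron. That summit was 826 bp downstream of a transcript start and 20494 bp from the gene start. Rapgef6, an activator of the GTPase Rap, had 37 over 8.74, at 168674 bp from the gene start. Cbfa2t3, a corepressor of blood cell differentiation, had 54 over 17.5, at 999 bp downstream of a transcript start and 22036 bp from the gene start. Of these 8 peaks, 6 had no AP-1 match within 250 bp, and Armc9 and Ap2a1 had one at 194 and 150 bp.

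Genes were linked to a peak whose summit lay inside them or in the 5 kb upstream. The 340 peaks linked to 189 of 21728 protein-coding genes (0.87%), and 109 peaks linked to none. Lists of 279 genes, each counted once, covered 12 sets of cell type markers and 9 sets of functions. Of these genes 2 were linked (0.717%), close to the 0.87% of all protein-coding genes. One of them was F13a1, the coagulation factor XIII subunit that monocytes express, 1 of 14 monocyte markers. Its peak (chr13:37019307-37019509), in an intron, had 27 tags in vehicle over 5.84 in MS-275, and an AP-1 match lay 159 bp from the summit. The suppressive effectors (0 of 18), the AP-1 and related bZIP factors (0 of 20), the chemokines and their receptors (0 of 23), the adhesion genes (0 of 19), the cytokine and growth factor receptors (0 of 17) and the myeloid transcription factors (0 of 27) had no linked peak. The markers of macrophages (0 of 14), neutrophils (0 of 13), dendritic cells (0 of 9), T cells (0 of 13), NK cells (0 of 8), B cells (0 of 8), hepatocytes (0 of 12), endothelium (0 of 8), fibroblasts (0 of 8), erythroid cells (0 of 7) and mast cells (0 of 6) had none either. The same held for hypoxia and glycolysis (0 of 15) and signal feedback (0 of 15).

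Most of the 189 genes had 1 interval, and 12 had 2. Some of these 12 held neighbouring summits of 1 element. In Sv2c, a vesicle protein, the summits were 0.317 kb apart with 27 and 38 vehicle tags, and both had an AP-1 match within 250 bp. Slc25a12, the mitochondrial aspartate-glutamate carrier, had 3 summits in 2 intervals within 0.592 kb, with 38 to 43 tags and no match. In Dym, which is needed for the Golgi apparatus, the summits were 0.315 kb apart with 45 and 50 tags and no match. Commd1 shared its pair with the overlapping read-through gene Gm28048. Separate elements were found in Dnmt1, the maintenance DNA methyltransferase, 2.62 kb apart with 30 and 45 tags, and in Cdh23, a cadherin, 3.14 kb apart with 30 and 35 tags. In Hectd4, a ubiquitin ligase gene, they were 61.6 kb apart with 20 and 40 tags, and in Dtnbp1, which encodes dysbindin, 65.5 kb apart with 28 and 43. The locus named Gm20388 spanned the Gas8 and Cbfa2t3 peaks, 841.9 kb apart.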

How the data were processed

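Per the labels, nuclei of sorted M-MDSCs were tagmented with a commercial ATAC-seq kit. According to the submitters' processing notes and the study's methods, reads were aligned with Bowtie2 to mm10 and groups were compared with MACS2 2.2.7.1 without a model and with a shift of 0, so summits were not moved to the transposase cut. The authors pooled the 2 libraries of each group, and each list has 1 group as treatment and another as control. The deposited values per peak were a fold enrichment (a linear ratio of treatment pileup to local control level) and −log10 p- and q-values of a Poisson test. All q-values were at most 0.05. The methods name a p-value threshold of 0.00001, which the lists do not follow: 25 of the 340 members and 54 CXD101 lost peaks had a −log10 p under 5.

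Vehicle tags and inhibitor levels were solved from the deposited ratio and −log10 p with MACS2's pseudocount of 1. Each of the 1384 lost peaks had 1 solution, and at the 89 summits on the same base in both lost lists the vehicle tags were equal in 89. The recovery was tested on simulated data. Peaks were matched by an overlap of at least 1 base. Genes came from GENCODE M21 and sequence from the GRCm38 (mm10) assembly. RefSeq promoters, from 250 bases before to 50 after 32851 starts, were searched for the same motifs. Motifs were searched on both strands within 100 bp. Of the families not spelled out with the results, NF-kB, CTCF and NRF1 had variable letters, IRF was GAAANNGAAA, STAT was TTCCNGGAA, the motif of GATA factors was AGATAAG or TGATAAG, the E-box was CACGTG, FOXA was TGTTTAC and TEAD was ACATTCCA. Shares have 95% Wilson intervals and differences have Newcombe intervals, for counting error only, with no p-value across peaks. The vehicle libraries are shared by both lost lists.

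The members, gene lists and tests were chosen with earlier results of these data known. The peaks and genes named were the 12 strongest, the 8 strongest within 1 kb of a protein-coding TSS, 3 at each edge of the rule, list genes with a linked peak, and genes with 2 or more intervals. Some genes that this rule names are not reported here. The nearest gene is a position and not a target. It was found by the nearest transcript start, so a distance to it can be to a start inside the gene. Python 3.11.15, numpy 2.4.6, pandas 2.3.3, scipy 1.17.1 and matplotlib 3.10.9 were used. Alternatives covered the overlap rule, thresholds, windows, promoter definitions and the pseudocount. No sequence of chromosome 18 was used for display.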

Additional observations from a re-analysis of the deposited data

How the results depend on the processing

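Of the 31 alternative values computed, 25 stayed within the interval of the reported share, within 1.5 times the reported count or within 1 SD of the reported level. That SD is the spread over the peaks, 17.7 tags around a median of 18.6, so the criterion for the level could hardly be missed. The number of MS-275-only lost peaks ran from 268 (q under 0.001) to 395 (under 0.5 of the length covered by a CXD101 lost peak). With both lost lists held to the p-value of 0.00001 that the methods name, an alternative chosen after seeing the data, it was 322, and the median lowest uncalled CXD101 level was 17.2 in place of 18.6. The AP-1 share of 16.5% was 7.06% at 50 bp either side and 40.3% at 200 bp. With windows chosen after seeing the data it was 46.5% at 250 bp and 44.3% at 250 bp over distinct intervals, and a wider window holds every match of a narrower one. The promoter share of 19.7% was 11.2% with the summit within 1 kb of a TSS, and the repeat share of 15% was 7.06% with over 0.5 of the window of 100 bp either side in repeats. With a pseudocount of 0, 1.18% of the peaks could be solved to within 0.001 of their −log10 p. The median level of 20.7 at that setting is among the 25, but is no check for this reason. No paired analysis was possible because each list gives 1 value for both libraries of a group, and no value could be computed without replicate 1 or 2. Depth per library was not used, the MS-275 level is an upper estimate, and differences between the vehicle libraries could not be told apart from the effect of MS-275.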

Other observations

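Myeloid and signalling genes outside the lists also held MS-275-only lost peaks. They were chosen after their values had been seen, and no enrichment was tested. Among receptors, Cd200r4, of the CD200 receptor family, had an intronic peak of 44 tags in vehicle over a level of 9.62 in MS-275, and Ccrl2, an atypical chemoattractant receptor of myeloid cells, had 79 over 33.2 at its promoter. Fgr, a Src family kinase of myeloid cells, had a promoter peak of 71 tags over 30.6 with an AP-1 match 50 bp from the summit. Irak3, an inhibitor of Toll-like receptor signalling, had 39 tags over 9.79 in an intron. The lysosomal proteases Ctsk and Lgmn had 62 tags over 21 and, at the stronger of 2 summits, 40 over 6.99. Ksr1, a scaffold protein of Ras signalling, had an intronic peak of 38 tags over 10.5, and Grb2, an adaptor of receptor tyrosine kinases, had one of 26 over 6.99. The chromatin remodelling genes Arid1a and Bptf had peaks as well, Arid1a with 37 over 9.44 at the stronger summit and Bptf with 24 over 6.12. Near the 12 strongest peaks in rank were intergenic peaks 45.7 kb from Ahr, the aryl hydrocarbon receptor, with 48 tags over 8.22, and 36.3 kb from Il1rl1, the interleukin-33 receptor, with 66 over 15.7.

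A count of all 7-letter words within 250 bp of the strongest summit of each interval put TGACTCA first. It was in 124 of the 280 intervals and in 20 at the positions moved by 10 kb, 37.1 percentage points apart. The next word that did not overlap AP-1 was ACTTCCT, the core of the ETS site that PU.1 also binds, in 88 intervals (31.4%) against 31 (11.1%) at the moved positions. At MS-275 gained intervals the AP-1 word was found in 9.11% and ACTTCCT in 28.0%. The AP-1 word thus differed between lost and gained intervals by far more than the ETS word, and this was seen in the same data that chose the words.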
